A study of Mus musculus with 12 samples.

Results

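The glycolysis and hypoxia genes described here are 34 listed genes of the mouse: 18 glycolytic enzymes, 3 regulators of glycolysis, 4 glucose and lactate transporters, 3 genes of oxygen sensing and 6 targets of the hypoxia response. They were taken by name from 34989 genes with a listed transcript, and all 34 were among the 16027 genes with enough counts to test. RNA came from cells labelled tumor associated macrophages of mouse melanomas, in 12 libraries, 3 for each of 4 groups. All mice carried the same inducible melanoma model, with a Cre (Tyr::CreER) that a melanocyte promoter drives. Treatment began 30 days after local induction, with under 100 mm3 of tumor, and ran for 30 days or until a tumor reached 2 cm3. Mice ate normal chow or chow with 600 mg/kg of PLX6134, labelled CSF1Ri and taken to block the CSF1 receptor. They also received PBS or the antibody FGK4.5, a CD40 agonist, at 10 mg/kg every 3 days, for 10 injections or until that endpoint. Control had neither agent, the CD40 agonist and CSF1Ri groups had 1 each, and the group with both is called the combination. Each library pooled at least 3 tumors, and the labels name neither the ages of the mice nor a gate for the sequenced cells. Which cages or days the pools came from is not stated, and a p-value here reflects only how far pools of 1 group differ.

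Glycolysis splits glucose into pyruvate in the cytosol: hexokinase traps the sugar and phosphofructokinase commits it. Of the later steps from aldolase to pyruvate kinase, those of phosphoglycerate kinase and pyruvate kinase yield ATP. Lactate dehydrogenase then turns pyruvate into lactate. When oxygen is scarce, prolyl hydroxylases of the Egln family no longer mark the factor HIF1A for destruction, and HIF1A with its partner ARNT raises many of these enzymes together with glucose transporters, the angiogenic factor VEGFA and mitophagy receptors of the BNIP3 family. Macrophages also turn to glycolysis when inflammatory signals activate them, and HIF1A can take part there without a lack of oxygen. Much of the control of HIF1A is on the protein, which these RNA data do not show.

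Library totals ran from 26316328 to 39818657 estimated counts. Levels are given as CPM (counts per 1000000 after TMM scaling, a correction for library composition) where 1 gene is compared between libraries, and as TPM (transcripts per 1000000, which allows for length) where genes are compared with each other. Of 12 macrophage markers, among them Csf1r, Adgre1 and C1qa, none was at 0 in any group, and together they reached 14740 to 35420 CPM per library. They summed to 17390 to 20820 CPM in Control, 15970 to 20340 with the CD40 agonist and 22870 to 28460 with CSF1Ri. Combination replicate 2 held 35420 CPM, against 14740 and 18110 for replicates 1 and 3. Markers of other cells were lower, with neutrophil markers summing to 298 to 2516 CPM and NK cell markers to 417 to 1664, while 8 melanocyte and melanoma markers together reached 11.1 to 105 CPM. Libraries did not all sit with their group: combination replicate 2 lay at -105.8 on the second principal component of all genes against -32.5 and -55.6 for its partners, CSF1Ri replicate 3 at 32.7 against -22.2 and -24, and CD40 agonist replicate 1 at -116.4 on the third against -12.8 and 3.7. In bulk RNA a change in the number of cells and a change in RNA per cell cannot be told apart.

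The promoters of a few members are shown because the results below divide the set into enzymes and other hypoxia-linked genes, and the short core that HIF1A binds (ACGTG or GCGTG, searched on both strands) lies in promoters of both kinds. Of the 34 members 31 matched a promoter of RefSeq (GRCm38.p6), and 26 of these 31 (83.9%) held either core in the 250 bases before a start annotated there, which can differ from the outermost start of the gene, against 51.6% of 14447 promoters of genes tested and 38.6% of 32851 promoters in all. For a member with several annotated starts, only that nearest its most abundant transcript was used. The 14447 and 32851 promoters include every annotated start, so the shares are not like for like. ACGTG was in 16 and GCGTG in 16 member promoters. Where ACGTG is part of the palindrome CACGTG, also read by other factors, it counts once on each strand. Each sequence runs 5′ to 3′ towards the start, with the cores in capitals (CACGT and CACGC are the same cores on the other strand).
Ldha (chr7:46845554-46845803, plus strand): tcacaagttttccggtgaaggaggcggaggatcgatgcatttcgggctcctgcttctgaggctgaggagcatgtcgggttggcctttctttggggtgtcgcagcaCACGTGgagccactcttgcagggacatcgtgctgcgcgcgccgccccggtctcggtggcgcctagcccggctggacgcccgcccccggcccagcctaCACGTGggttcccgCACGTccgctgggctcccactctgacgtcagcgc
Pgk1 (chrX:106186850-106187099, plus strand): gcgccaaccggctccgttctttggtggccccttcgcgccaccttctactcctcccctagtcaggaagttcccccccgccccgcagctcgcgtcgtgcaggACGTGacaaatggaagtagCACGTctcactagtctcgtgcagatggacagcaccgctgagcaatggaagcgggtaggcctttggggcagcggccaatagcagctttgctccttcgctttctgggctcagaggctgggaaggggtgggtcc
Aldoa (chr7:126799255-126799504, minus strand): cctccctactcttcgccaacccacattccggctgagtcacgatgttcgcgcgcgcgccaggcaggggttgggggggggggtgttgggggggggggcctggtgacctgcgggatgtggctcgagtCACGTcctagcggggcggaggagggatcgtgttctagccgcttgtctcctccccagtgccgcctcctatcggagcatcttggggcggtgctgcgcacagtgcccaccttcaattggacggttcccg
Gapdh (chr6:125165774-125166023, minus strand): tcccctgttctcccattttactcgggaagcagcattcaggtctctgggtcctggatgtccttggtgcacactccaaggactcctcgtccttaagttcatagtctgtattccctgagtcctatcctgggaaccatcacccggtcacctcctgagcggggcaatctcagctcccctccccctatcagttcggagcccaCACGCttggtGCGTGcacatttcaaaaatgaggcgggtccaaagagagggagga
Tpi1 (chr6:124814159-124814408, minus strand): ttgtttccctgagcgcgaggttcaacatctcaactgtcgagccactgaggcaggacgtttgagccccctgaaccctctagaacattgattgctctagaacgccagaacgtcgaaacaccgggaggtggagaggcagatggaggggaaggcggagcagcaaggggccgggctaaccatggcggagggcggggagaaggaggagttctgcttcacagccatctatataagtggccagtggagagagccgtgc
Slc2a1 (chr4:119108495-119108744, plus strand): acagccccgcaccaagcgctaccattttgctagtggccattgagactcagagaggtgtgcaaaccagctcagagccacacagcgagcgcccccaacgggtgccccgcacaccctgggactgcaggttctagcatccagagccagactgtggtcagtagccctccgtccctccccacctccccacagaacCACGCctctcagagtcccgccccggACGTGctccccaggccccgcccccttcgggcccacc
Bnip3 (chr7:138909507-138909756, minus strand): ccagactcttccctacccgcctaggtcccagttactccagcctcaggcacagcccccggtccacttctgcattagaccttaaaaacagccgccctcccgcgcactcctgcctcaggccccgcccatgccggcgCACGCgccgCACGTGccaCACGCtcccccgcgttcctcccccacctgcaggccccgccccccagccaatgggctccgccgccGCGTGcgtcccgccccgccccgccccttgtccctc

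The Ldha promoter held 5 matches to ACGTG, Pgk1 2 and Aldoa 1, Gapdh 2 to GCGTG, and Tpi1 neither core. The glucose transporter gene Slc2a1 held 1 of each and Bnip3 2 and 3. Such a match is a description of letters, and no binding was measured.

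With the combination 4 enzymes of the steps from aldolase to lactate dehydrogenase rose. Ldha, Gapdh, Aldoa and Pgk1 were 1.70 to 1.78 times as high as in Control, and 14 of the 18 enzymes had their highest group mean with the combination. edgeR (quasi-likelihood test, Benjamini-Hochberg adjusted p below 0.05 over all 16027 genes) called 4 of 34 members in this comparison, all enzymes and all higher, where 0.774% of all genes were called.

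**Figure D1:**
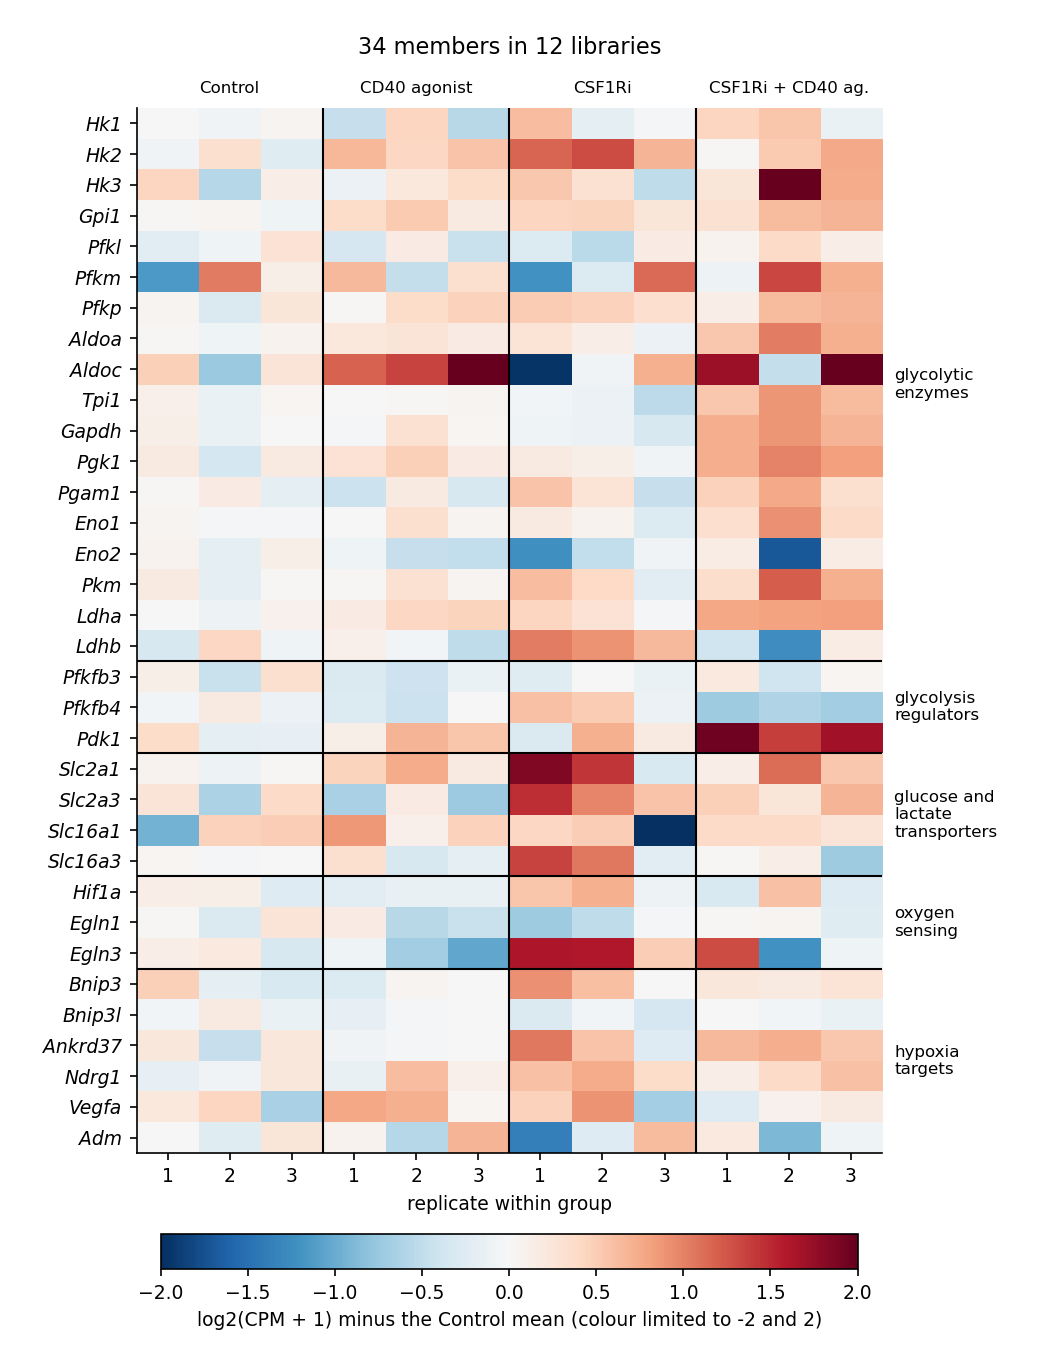
Each cell shows log2(CPM + 1) of a member (rows, grouped by role) in a library (columns, replicates 1 to 3 of each group) minus the mean of the 3 Control libraries, with colour limited to -2 and 2. Aldoa, Gapdh, Pgk1 and Ldha are red across the 3 combination libraries, and Slc2a1 and Slc16a3 are darkest in CSF1Ri replicates 1 and 2, not in replicate 3.

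Ldha encodes the lactate dehydrogenase subunit that favours lactate (ENSMUSG00000063229, chromosome 7, 46841475 to 46855627, GRCm38). Its Control libraries held 483, 449 and 507 CPM, those of the CD40 agonist 535, 638 and 653, those of CSF1Ri 647, 584 and 474, and those of the combination 821, 839 and 850. The 3 combination libraries lay above the other 9, and the log2 fold change against Control was 0.80 ± 0.13 (SE, edgeR adjusted p = 0.0222). Libraries given the CD40 agonist alone also lay above all Control libraries, but with 0.34 ± 0.13 that did not pass the test (adjusted p = 0.581).

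Gapdh, the dehydrogenase that yields the first NADH of the pathway (ENSMUSG00000057666, chromosome 6, 125161715 to 125166467), was at 289, 241 and 267 CPM in Control and 257, 327 and 273 with the CD40 agonist. With CSF1Ri it was at 250, 244 and 213 CPM, and with the combination at 440, 489 and 426. Again no other library reached the combination, and the log2 fold changes were 0.77 ± 0.13 against Control (edgeR adjusted p = 0.0256) and 0.94 ± 0.13 against CSF1Ri (adjusted p = 0.0104). Gapdh has many near-identical copies in the genome: 58.9% of the 75-base windows of its most abundant transcript also occur in 71 other listed genes, mostly pseudogenes such as Gm13394, which held 66.9% to 70.5% of the joint counts. With the copies' counts added to the gene the means were 859 ± 77.7 (SD, n = 3) CPM in Control and 1467 ± 171 with the combination, and the log2 fold change was 0.77 ± 0.14 (edgeR adjusted p = 0.036).

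Aldoa, the aldolase of most tissues (ENSMUSG00000030695, chromosome 7, 126795234 to 126800751), was at 920, 859 and 951 CPM in Control and at 1048, 1088 and 1020 with the CD40 agonist. CSF1Ri libraries held 1103, 995 and 836 CPM and combination libraries 1315, 1857 and 1495. The combination again did not overlap with any other group, at 0.77 ± 0.14 against Control (edgeR adjusted p = 0.0362) and 0.67 ± 0.14 against CSF1Ri (adjusted p = 0.0367).

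Pgk1, a kinase of the ATP-yielding phase (ENSMUSG00000062070, chromosome X, 106187100 to 106203699), was at 247, 172 and 247 CPM in Control and 269, 303 and 244 with the CD40 agonist. It was at 248, 238 and 208 CPM with CSF1Ri, while combination libraries held 364, 435 and 387. Its log2 fold changes were 0.83 ± 0.16 against Control (edgeR adjusted p = 0.0402) and 0.77 ± 0.16 against CSF1Ri (adjusted p = 0.0365). Tpi1, which interconverts the triose phosphates (ENSMUSG00000023456, chromosome 6, 124810586 to 124814296), was at 155, 132 and 149 CPM in Control and 145, 147 and 150 with the CD40 agonist. CSF1Ri libraries of Tpi1 held 140, 134 and 100 CPM and combination libraries 210, 269 and 224. Tpi1 rose against CSF1Ri (0.91 ± 0.15, edgeR adjusted p = 0.0181) and missed the threshold against Control (0.69 ± 0.15, adjusted p = 0.0634).

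**Figure D2:**
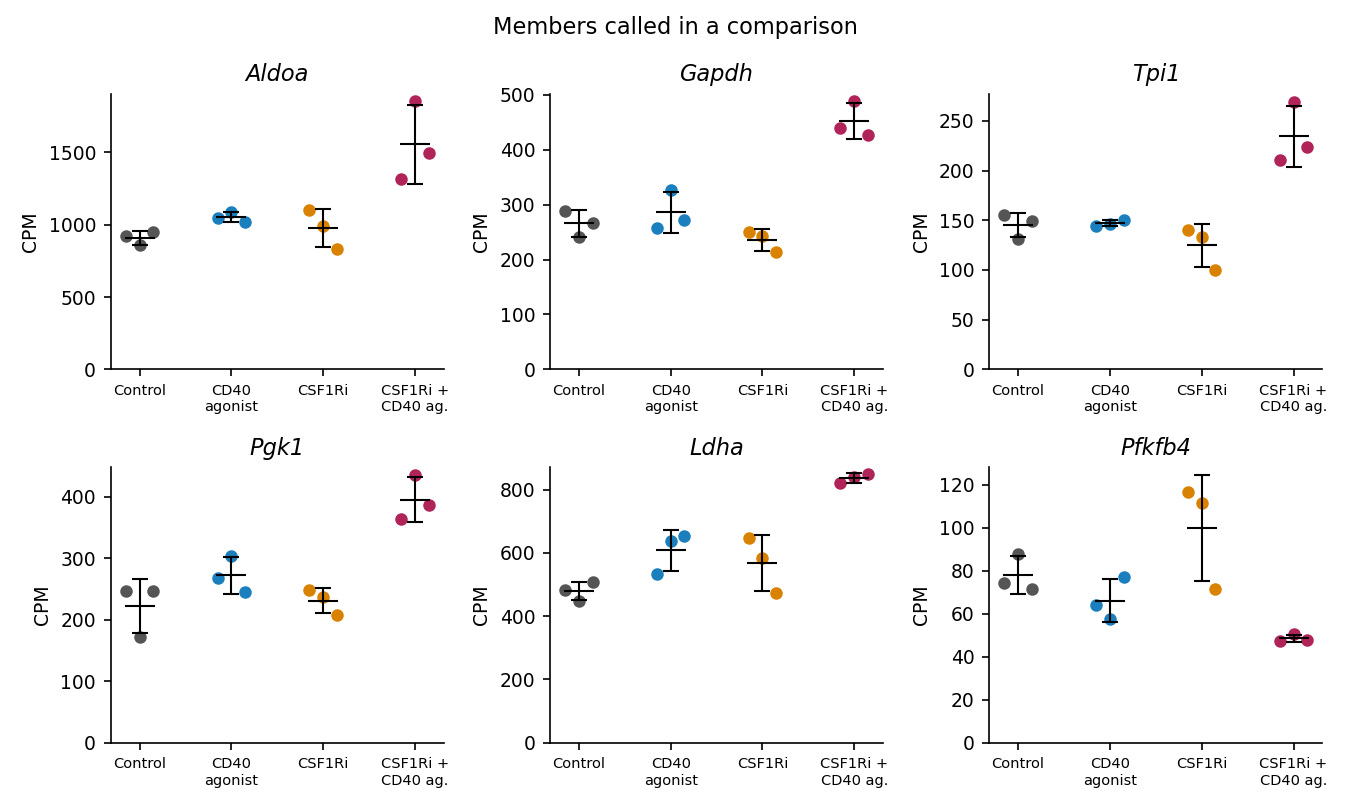
Points are CPM of single libraries (replicates 1, 2 and 3 from left to right), and the bar with whiskers is the mean ± SD of 3 libraries, for the 6 members called in a comparison between 2 groups. In the 5 enzymes every combination library lies above the other 9 libraries, whereas Pfkfb4 is lowest with the combination, at 47.2 to 50.5 CPM.

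These calls sit close to the threshold. The count of 4 against Control was 0 without any 1 of the Control replicates or without combination replicate 3. It was 1 without CSF1Ri replicate 2 and 2 without combination replicate 1 or any 1 of the CD40 agonist replicates, which enter through the shared estimate of spread. The sizes moved little: with any 1 of the 12 libraries left out, the log2 fold change against Control stayed within 0.75 to 0.84 for Ldha, 0.69 to 0.82 for Gapdh, 0.63 to 0.88 for Aldoa and 0.67 to 0.91 for Pgk1. DESeq2 called 10 members, adding Eno1, Gpi1, Pdk1, Pfkfb4, Pkm and Tpi1, where it called 5.83% of all genes. By limma voom 5 were called, adding Pdk1, a count given without its share of all genes. With only the 6 libraries of these groups in the fit, edgeR called 0 members and 0.0342% of all genes. Without CSF1Ri replicate 3 and combination replicate 2, and with CD40 agonist replicate 1 kept, edgeR called 4 members, Aldoa, Gapdh, Ldha and Tpi1, where 1.39% of all genes were called.

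Other enzymes leaned the same way without passing. Over the 18 enzymes 16 fitted log2 fold changes of the combination against Control were above 0, with a median of 0.58, against a median of 0.002 over all genes tested. Pkm, the pyruvate kinase gene, held 1526, 1170 and 1363 CPM in Control libraries, 1364, 1653 and 1397 in those of the CD40 agonist, 2058, 1766 and 1147 in those of CSF1Ri and 1723, 3117 and 2198 in those of the combination. Its highest value, in combination replicate 2, stood far from the other combination libraries, and the difference from Control was 0.79 ± 0.24 (edgeR adjusted p = 0.16). Gpi1 (0.55 ± 0.13), Pfkp (0.49 ± 0.19), Pgam1 (0.52 ± 0.25) and Eno1 (0.57 ± 0.17), which act at other steps, did not pass either (edgeR adjusted p from 0.0844 to 0.364). Eno1 shares most of its sequence with Eno1b and other copies, which held 46.9% to 49.9% of the joint counts, and with these added its log2 difference from Control was 0.61 ± 0.18 (edgeR adjusted p = 0.153). Hk1, Pfkl and Pfkm differed by 0.19 to 0.59 with adjusted p of 0.709 or more.

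The 2 enzymes that leaned down against Control with the combination were the minor isoform genes Eno2 (-0.27 ± 0.46) and Ldhb (-0.43 ± 0.33), whose subunit favours the use of lactate. Ldhb was at 32.7 ± 15 (SD, n = 3) CPM with the combination, 44.1 ± 12.1 in Control and 79.5 ± 10.7 with CSF1Ri, where all 3 libraries lay above every Control and combination library. The difference between the combination and CSF1Ri was -1.28 ± 0.33 (edgeR adjusted p = 0.077), the opposite direction to Ldha at 0.56 ± 0.13 (adjusted p = 0.0512), and neither passed. A copy, Gm5514, held 2.97% to 5.61% of the joint counts of Ldhb.

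Among the hexokinases no member was called. Hk2, the inducible hexokinase, was at 45.9, 60.1 and 40.4 CPM in Control and 76.7, 64.2 and 71.6 with the CD40 agonist. It reached 109, 121 and 77.5 CPM with CSF1Ri, while combination libraries held 49.1, 69.7 and 82.3. All CSF1Ri libraries lay above all Control libraries, at 1.07 ± 0.23, which edgeR did not call (adjusted p = 0.137) and DESeq2 did (adjusted p = 0.00264). Hk3, the hexokinase of myeloid cells, was at 32.3, 112 and 46.3 CPM with the combination against 37.3, 18 and 30.1 in Control. CD40 agonist libraries held 25.1, 31.6 and 35.7 CPM of Hk3 and CSF1Ri libraries 40, 34.1 and 19. Its mean with the combination was set by replicate 2 (1.16 ± 0.46, edgeR adjusted p = 0.266). Aldoc, an aldolase known from brain, was low and scattered: Control libraries held 5.71, 1.87 and 4.75 CPM, CD40 agonist libraries 9.91, 11.2 and 27.9, CSF1Ri libraries 0.238, 3.6 and 6.85, and combination libraries 14.7, 2.44 and 19.2. Its largest difference from Control, 1.99 ± 1 with the CD40 agonist, did not pass (edgeR adjusted p = 0.688).

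Per length, members differed widely in level. Averaged over the 12 libraries Aldoa stood at 1088 TPM, Pkm at 981, Gapdh at 684, Ldha at 553, Eno1 at 524, Gpi1 at 322, Pgk1 at 207, Pgam1 at 144 and Tpi1 at 142, against 37.7 for Hk2, 98.7 for Pfkp, 57.4 for Slc2a1 and 42 for Slc16a3. The TPM of Gapdh, Gpi1 and Hk2 rests largely on short annotated transcripts, so these levels are less certain than their CPM comparisons.

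Pkm makes 2 forms of pyruvate kinase by the choice between 2 exons, of which M2 is the form of proliferating and activated cells and M1 that of muscle and brain. The M2 exon lies at chr9:59675568-59675734 and the M1 exon at chr9:59675029-59675195 on the plus strand. Transcripts with the M2 exon held 93.9%, 92.7% and 92.6% of Pkm TPM in the Control libraries and 91%, 91.7% and 92.5% in those of the CD40 agonist. They held 89.7%, 90.2% and 92.2% with CSF1Ri, while combination libraries held 95.2%, 93.4% and 95.9%. M2 was thus the main form in every library, with means of 93.1% ± 0.714 (SD, n = 3) in Control, 91.7% ± 0.729, 90.7% ± 1.34 and 94.8% ± 1.26 in the same order. The shares differed among the 4 groups by an exact permutation test over samples (F statistic, 369600 assignments, p = 0.00429). With 1 library left out p ran from 0.00195 to 0.0173, and from the estimated counts of the transcripts it was 0.0257. The lowest combination library lay below the highest Control library, so these groups overlapped.

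Of the 3 regulators 1, Pfkfb4, was called, lower with the combination than with CSF1Ri. Pfkfb4, which makes and removes fructose 2,6-bisphosphate, the activator of phosphofructokinase, was at 74.4, 87.8 and 71.5 CPM in Control and 64, 57.5 and 76.9 with the CD40 agonist. With CSF1Ri it was at 116, 111 and 71.4 CPM and with the combination at 47.2, 50.5 and 47.8, below every library of the other groups. It fell by 1.04 on the log2 scale from CSF1Ri to the combination (SE 0.19, edgeR adjusted p = 0.0277), 1 of 5 members called there beside Aldoa, Gapdh, Pgk1 and Tpi1, where 1.94% of all genes were called. That count was 0 with only the libraries of these groups in the fit, 0 without CSF1Ri replicate 2, and 2 without CSF1Ri replicate 1, combination replicate 3 or Control replicate 1. Without Control replicate 3, CD40 agonist replicate 2 or 3, or combination replicate 1 it was 3. Without CSF1Ri replicate 3 and combination replicate 2 it was 6, with Gapdh and Tpi1 higher and Pfkfb4, Hif1a, Slc2a1 and Slc16a3 lower in the combination, where 3.8% of all genes were called. Aldoa and Pgk1 were not called there.

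Pdk1, a kinase that holds back the use of pyruvate in mitochondria, was low. It was at 5.04, 3.1 and 3.21 CPM in Control and 4.09, 6.56 and 5.9 with the CD40 agonist. CSF1Ri libraries held 2.85, 6.71 and 4.34 CPM and combination libraries 17.2, 11.2 and 14.1. Every combination library lay above the other 9, and the difference from Control was the largest of the 34 members there (1.90 ± 0.43), yet edgeR did not call it (adjusted p = 0.0701). Pfkfb3, of the same family as Pfkfb4, differed from Control by -0.32 to -0.07 in the 3 comparisons, none of them called.

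In 3 of the 4 glucose and lactate transporters the highest group mean was that of CSF1Ri, and no transporter was called by edgeR. Slc2a1, the glucose transporter GLUT1 (ENSMUSG00000028645, chromosome 4, 119108711 to 119137983), was at 70.2, 61.7 and 67.7 CPM in Control and 90.5, 112 and 75 with the CD40 agonist. CSF1Ri replicates 1 and 2 reached 244 and 180 CPM and replicate 3 held 53.8, below every other library, while the combination was at 72.6, 145 and 97.2. The difference between CSF1Ri and Control was 1.26 ± 0.44 (edgeR adjusted p = 0.387). Without CSF1Ri replicate 3, the lowest library for this gene, it was 1.65 and was called (edgeR adjusted p = 0.0305). That was the only call when each of the 12 libraries was left out in turn. Those log2 fold changes ran from 0.80 to 1.65, with edgeR adjusted p up to 0.723.

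Slc2a3, the high-affinity glucose transporter GLUT3, was at 141, 99.3 and 74.9 CPM with CSF1Ri against 60.3, 31.9 and 65.4 in Control, so that these groups did not overlap (1 ± 0.34, edgeR adjusted p = 0.357). It was at 31.5, 56.4 and 29.8 CPM with the CD40 agonist and 70, 59.6 and 81 with the combination. Slc16a3, the lactate exporter MCT4, chosen for description after its values were seen, was at 148, 121 and 49.2 CPM with CSF1Ri against 59.2, 56.5 and 56.9 in Control (0.88 ± 0.36, adjusted p = 0.476). Its other libraries held 34.9 to 72.2 CPM. Slc16a1, the lactate transporter MCT1, was low throughout, at 0.583 to 13.3 CPM, with its highest group mean under the CD40 agonist and its lowest under CSF1Ri.

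**Figure D3:**
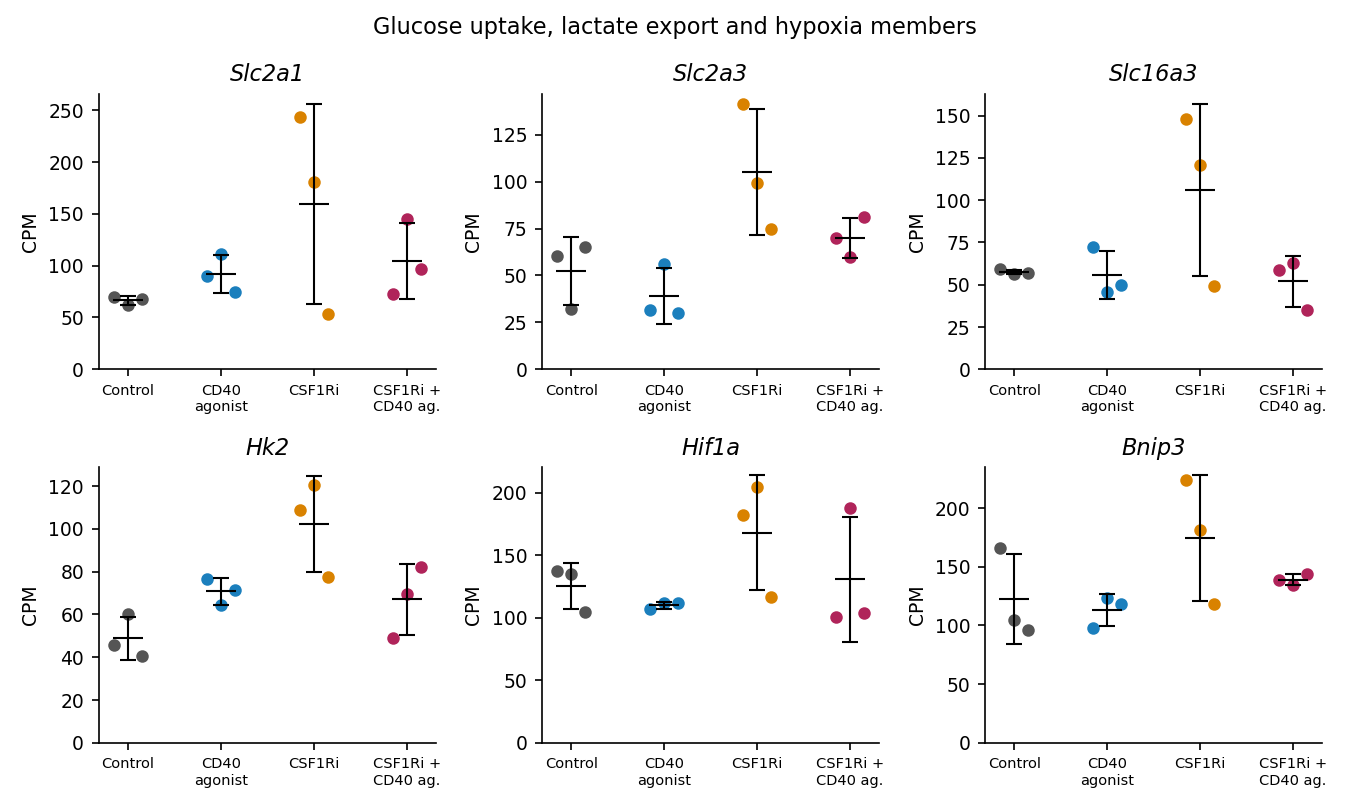
Points are CPM of single libraries (replicates 1, 2 and 3 from left to right) and bars are the mean ± SD of 3 libraries. In Slc2a1, Slc16a3, Hif1a and Bnip3 the third CSF1Ri library lies within or below the range of Control while the first and second lie above it.

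With CSF1Ri edgeR called 0 of 34 members against Control, where it called 0.0125% of all genes, and 8 members, against 1517 of 16027 genes, had an unadjusted p below 0.05. DESeq2 called 1 (Hk2), where it called 2.55% of all genes, and limma voom 0. In 7 of 34 members (Hk2, Gpi1, Pfkp, Ldhb, Slc2a3, Egln3 and Ndrg1) all 3 CSF1Ri libraries lay above all 3 Control libraries, against 7.23% of all genes tested. Without CSF1Ri replicate 3 edgeR called 1 (Slc2a1), a count given without its share of all genes. Without both this library and combination replicate 2 edgeR called 3 (Hk2, Slc2a1 and Slc16a3), where 2.03% of all genes were called. Other genes moved with these libraries: neutrophil markers summed to 2516 and 1705 CPM in CSF1Ri replicates 1 and 2 and 583 in replicate 3 (388 to 996 in Control), and 11 inflammatory cytokine genes to 5977, 5042 and 970 CPM (945 to 1784 in Control). Their part in the transporter levels was not tested.

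Among the genes of oxygen sensing, Hif1a, the regulated subunit of the hypoxia factor (ENSMUSG00000021109, chromosome 12, 73901375 to 73947530), was at 137, 135 and 104 CPM in Control and 107, 112 and 112 with the CD40 agonist. CSF1Ri libraries held 183, 205 and 116 CPM and combination libraries 100, 188 and 104. The high values were those of CSF1Ri replicates 1 and 2 and combination replicate 2, and the differences from Control, 0.42 ± 0.26 with CSF1Ri and 0.06 ± 0.26 with the combination, were not called (edgeR adjusted p = 0.677 and 0.951). On the TPM scale the combination mean of Hif1a was 0.907 times that of Control and on the CPM scale 1.04 times, so its direction is not settled.

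Egln3, a prolyl hydroxylase gene that HIF1A itself induces, was at 19.6, 19.2 and 8.39 CPM with CSF1Ri against 6.29, 6.68 and 4.32 in Control. CD40 agonist libraries held 5.29, 3.11 and 2.24 CPM of Egln3 and combination libraries 15.5, 1.9 and 5.26. CSF1Ri lay above Control in all libraries, at 1.45 ± 0.67, which was not called (edgeR adjusted p = 0.537). Egln1, the main hydroxylase of normal oxygen, kept between 14.4 and 29.4 CPM in the 12 libraries, with its lowest group mean under CSF1Ri (-0.43 ± 0.28, adjusted p = 0.69).

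Hypoxia targets outside glycolysis held no member called by edgeR in any of the 7 comparisons, and 1, Ndrg1, had an unadjusted p below 0.05 with CSF1Ri against Control. Against Control 3 of 6 were above 0 with the combination and 4 of 6 with CSF1Ri. Bnip3l, a mitophagy receptor and per length the most abundant of them at 364.5 TPM, a level that rests on a short annotated transcript, was at 313, 367 and 297 CPM in Control and 291, 319 and 324 with the CD40 agonist. It stood at 264, 311 and 257 CPM with CSF1Ri, while combination libraries held 326, 313 and 296, an overlap of all groups. Vegfa, the angiogenic factor, was low, at 11.5, 13.5 and 5.83 CPM in Control and 17.3, 16.5 and 9.97 with the CD40 agonist. CSF1Ri libraries held 13.8, 19.1 and 5.68 CPM and combination libraries 8, 10.4 and 11.1. The difference of the combination from Control for Vegfa was -0.06 ± 0.46 (edgeR adjusted p = 0.972).

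Bnip3, Ndrg1 and Ankrd37 had their highest group mean with CSF1Ri or the combination. Bnip3, chosen for description after its values were seen, was at 224, 181 and 118 CPM with CSF1Ri and 134 to 144 with the combination against 96.1 to 166 in Control. Ndrg1 was at 92.6 ± 12.2 (SD, n = 3) CPM with CSF1Ri against 62.5 ± 9.21 in Control (0.57 ± 0.21, edgeR adjusted p = 0.437), without overlap. CD40 agonist libraries of Ndrg1 held 55.8 to 96.1 CPM and so reached into the range of CSF1Ri. Ankrd37 was at 16.8 ± 1.23 CPM with the combination against 10.7 ± 2.94 (0.65 ± 0.35, adjusted p = 0.419), also without overlap, though up to 8.42% of its counts may lie with the overlapping gene Lrp2bp. Adm, a vasodilator peptide gene, stayed between 0.204 and 4.01 CPM.

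Set against each other, the 18 enzymes and the 6 targets differed in which treatment stood highest. A list of 22 other hypoxia targets, described below, did not show the order of these 6. The median log2 fold change of the 18 enzymes was 0.58 with the combination and 0.11 with CSF1Ri, and that of the 6 targets 0.06 and 0.42. Enzymes minus targets was therefore 0.52 with the combination, -0.30 with CSF1Ri and 0.05 with the CD40 agonist. Taken library by library against the Control mean the difference was 0.18, 0.66 and 0.46 in the combination, -0.17, -0.46 and 0.09 with CSF1Ri and 0.14, 0.28 and 0.09 with the CD40 agonist. All combination libraries were positive, CSF1Ri libraries lay on both sides of 0, and combination replicate 1 fell within the range of the CD40 agonist libraries. Without combination replicate 2 the combination's value was 0.31, without CSF1Ri replicate 2 that of CSF1Ri was -0.08, and without Control replicate 3 it was -0.06. These are descriptions of chosen lists and carry no test, and the 3 comparisons share the Control libraries.

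**Figure D4:**
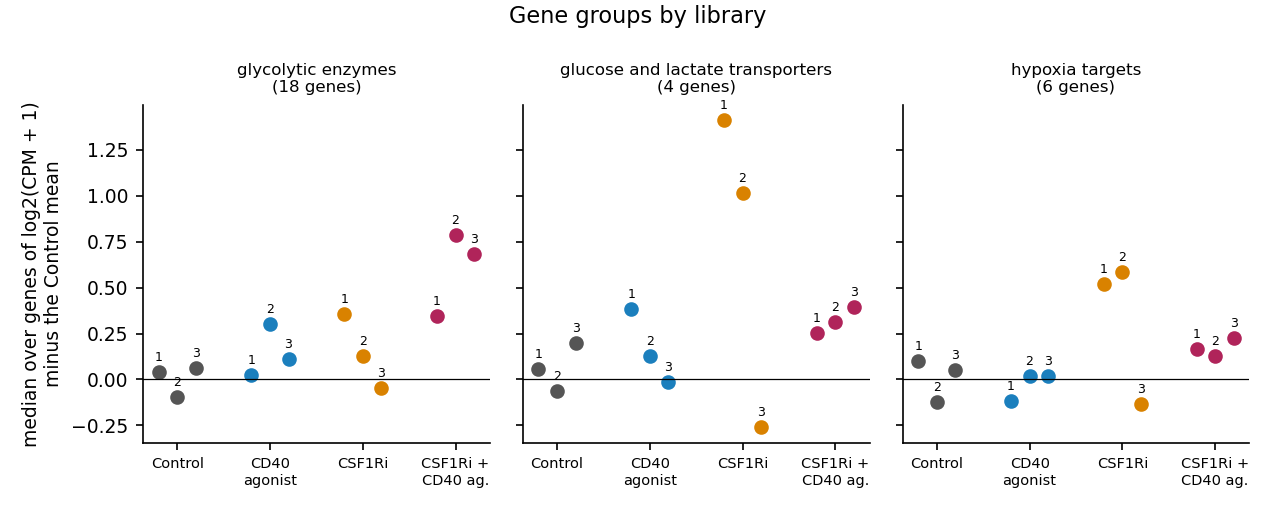
Each point is 1 library, numbered by replicate: the median over the genes of a role group of log2(CPM + 1) minus the mean of the 3 Control libraries. Enzymes reach 0.34 to 0.79 in the combination, where replicate 1 is level with CSF1Ri replicate 1 (0.36); transporters and hypoxia targets are highest in CSF1Ri replicates 1 and 2, with replicate 3 below 0.

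The highest group mean was that of the combination in 16 members, CSF1Ri in 10, the CD40 agonist in 4 and Control in 4. Over all 34 members the median log2 fold change was 0.44 with the combination, 0.21 with CSF1Ri and 0.06 with the CD40 agonist, against 0.002, -0.015 and 0.011 over all genes tested. Across the members 12 were higher without overlap in the combination than in Control, against 10.8% of all genes tested, and 9 of the 12 were enzymes; the others were Pdk1, Slc2a1 and Ankrd37. The test of any difference among the 4 groups called 4 members (Gapdh, Tpi1, Ldha and Aldoa), where 1.2% of all genes were called. That count was 0 without any 1 of the Control replicates or CSF1Ri replicate 1 or 2, 1 without CD40 agonist replicate 2 or 3 or combination replicate 2 or 3, 2 without CD40 agonist replicate 1 or combination replicate 1, and 6 without CSF1Ri replicate 3. Shares of all genes are not given for these fits, so the counts show only how the calls moved. In the combination against the CD40 agonist edgeR called 0 of 34, as it did for 0.0% of all genes. There 12 members, against 1450 of 16027 genes, had an unadjusted p below 0.05. DESeq2 called 4, Aldoa, Gapdh, Pdk1 and Tpi1, where it called 1.7% of all genes, and limma voom 0. The CD40 agonist against Control gave 0 called members and 0.0% of all genes. At an unadjusted p below 0.05 lay 3 members there, Hk2, Gpi1 and Ldha, against 1231 of 16027 genes, and DESeq2 and limma voom called 0.

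The interaction, which asks whether both agents together differ from the sum of their log2 effects, called 0 of 34 members and 0.0% of all genes. At an unadjusted p below 0.05 were 6 members, against 1305 of 16027 genes: Gapdh (0.83 ± 0.18, edgeR adjusted p = 0.263), Tpi1 (0.89 ± 0.21, adjusted p = 0.305) and Aldoa were positive and Hk2 (-1.15 ± 0.33, adjusted p = 0.418), Ldhb and Pfkfb4 negative. DESeq2 called Gapdh and Tpi1, where it called 1.05% of all genes, and limma voom 0 members. Without CSF1Ri replicate 3 and combination replicate 2 edgeR called 1, Slc2a1, where 0.397% of all genes were called. No rise beyond the sum of the single agents passed the main test.

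**Figure D5:**
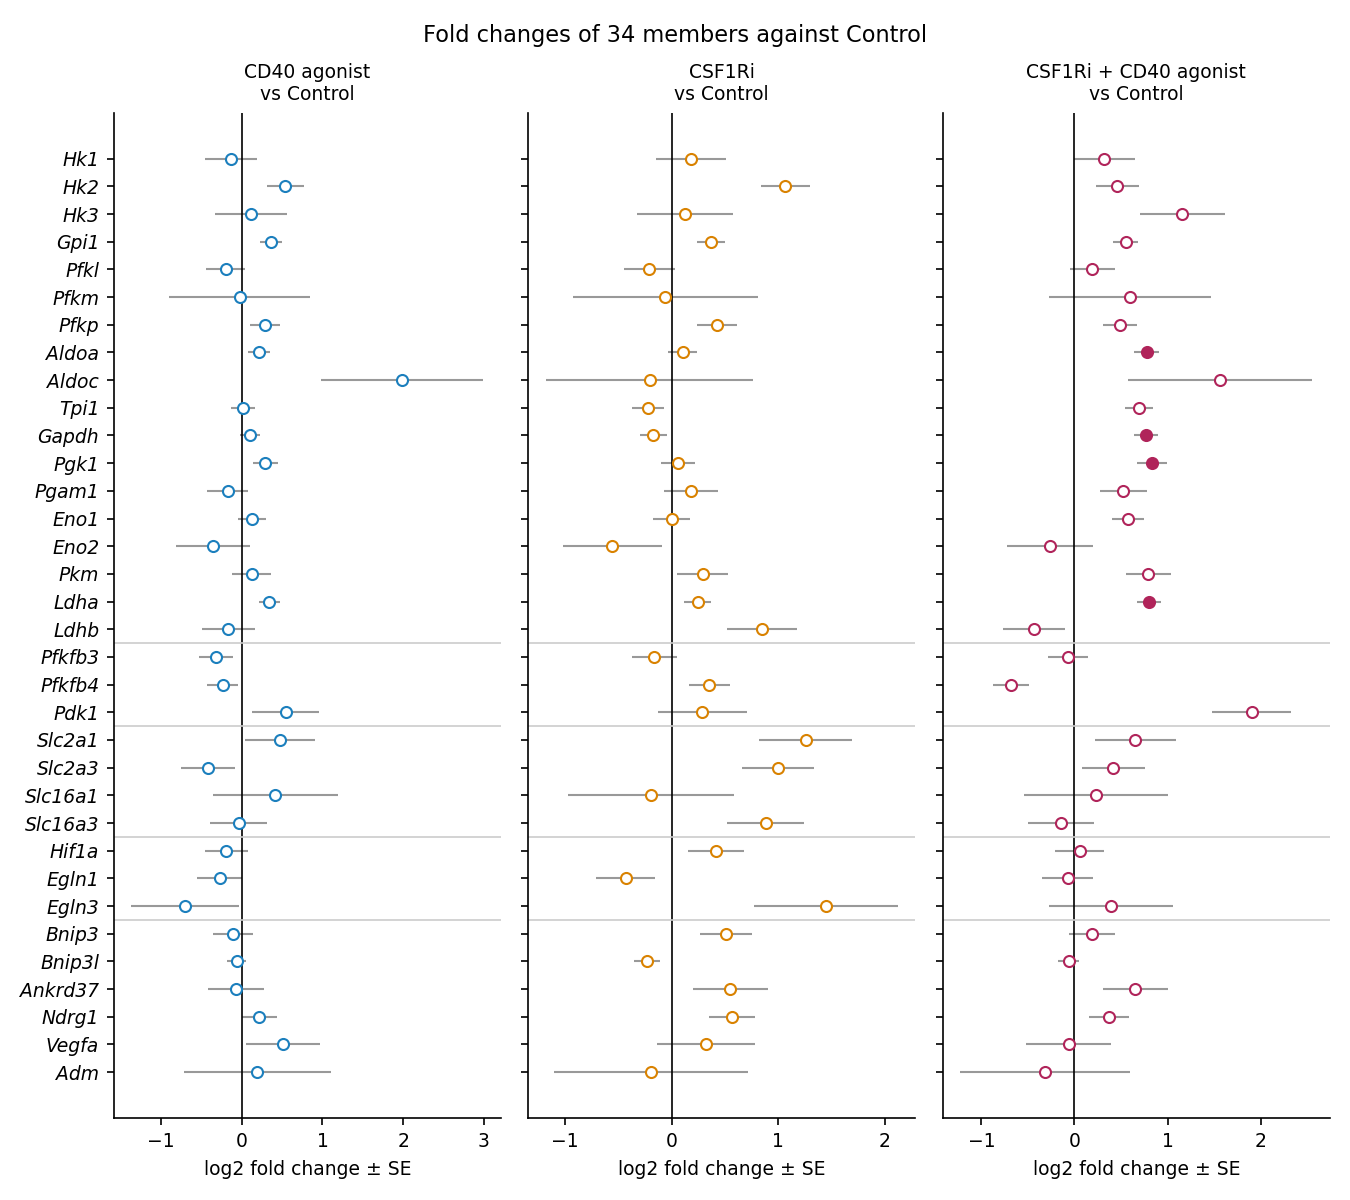
Points are fitted log2 fold changes against Control with whiskers of ± 1 SE, for 34 members (rows, by role) in 3 comparisons; filled points passed the adjusted threshold of 0.05. Filled points are limited to Aldoa, Gapdh, Pgk1 and Ldha with the combination.

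Other gene groups differed in the same combination libraries. Early response genes, which tissue digestion can induce, summed to 5430 to 7091 CPM against 3038 to 3502 in Control, inflammatory cytokine genes to 3454 to 4539 against 945 to 1784, and cell cycle genes to 340 to 624 against 196 to 216. Melanocyte and melanoma markers summed to 26.6 to 105 CPM against 18.1 to 24.7 in Control, with Sox10 and Slc45a2 at 0 in all Control libraries, and T cell markers to 55.3 to 80.4 against 93 to 118. Mast cell, basophil and eosinophil markers summed to 237 to 356 CPM against 87.2 to 132, NK cell markers to 882.4 to 1373 against 624.8 to 881.7, and neutrophil markers to 704 to 2081 against 388 to 996. Erythroid markers summed to 12.3 to 314 CPM against 424 to 648 and B cell markers to 16.3 to 29.1 against 38.2 to 45.1. The neutrophil sums overlapped with Control, as did those of macrophage markers (14740 to 35420 against 17390 to 20820 CPM). With the CD40 agonist alone early response genes summed to 4622 to 5250 CPM, cell cycle genes to 289 to 407 and inflammatory cytokine genes to 1803 to 2806. In that group melanocyte and melanoma markers summed to 34.9 to 59.8 CPM, NK cell markers to 826 to 1664 and erythroid markers to 126 to 195. Its B cell markers, at 48.4 to 92.4 CPM, lay above Control, opposite to the combination. With CSF1Ri alone early response genes summed to 3128 to 4962 CPM and cell cycle genes to 180 to 208, both overlapping with Control. B cell markers with CSF1Ri alone summed to 14.5 to 29.2 CPM and erythroid markers to 209 to 536. Mast cell, basophil and eosinophil markers reached 373.5 to 460 CPM with CSF1Ri, above the combination, and T cell markers 45.2 to 53.4. The part of these gene groups in the rise of the enzymes was not tested.

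Neighbouring pathways were read from lists of other genes. Of 19 genes of pyruvate entry and the citric acid cycle 19 were above 0 with the combination (median 0.40), 0 of them called against Control. An unadjusted p below 0.05 was found for 11 of them, against 2372 of 16027 genes. Mpc1, a subunit of the mitochondrial pyruvate carrier, rose from CSF1Ri (110, 96.3 and 94.6 CPM) to the combination (187, 166 and 191 CPM) by 0.85 ± 0.15 (edgeR adjusted p = 0.0219). The most abundant of the list, Mdh2 and Sdhb, differed from Control by 0.50 ± 0.10 (adjusted p = 0.0521) and 0.42 ± 0.15 (adjusted p = 0.223). The 8 pentose phosphate genes had a median of 0.15 and no call, with Taldo1 at 0.12 ± 0.11 and Tkt at 0.02 ± 0.19 (adjusted p = 0.674 and 0.982).

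Among 22 other hypoxia targets 2 rose with the combination and 0 fell, where 74 of all 16027 genes rose and 50 fell, and 13 of the 22 were above 0 and 9 below. Fam162a, a mitochondrial protein gene induced by hypoxia, went from 6.75, 8.51 and 10.4 CPM in Control to 34.7, 17.6 and 31.4 (1.70 ± 0.32, edgeR adjusted p = 0.0378). Mif, a cytokine gene, went from 48.1, 46.3 and 57.1 CPM to 112, 94.4 and 74.2 (0.89 ± 0.16, adjusted p = 0.0367), and it also rose against CSF1Ri (0.98 ± 0.16, adjusted p = 0.0184). The median of this list was 0.22 with the combination and 0.16 with CSF1Ri, so it did not repeat the order of the 6 targets above. The abundant Plin2, of lipid droplets, differed by -0.12 ± 0.24 with the combination. Of 18 tested other glycolysis genes none was called, with 9 above and 9 below 0: Eno3, the muscle enolase, was at 102 ± 59.4 (SD, n = 3) CPM with the combination against 263 ± 60 in Control (-1.37 ± 0.48, adjusted p = 0.221), and Bsg, the chaperone of lactate transporters, at 0.34 ± 0.14. Of 6 other genes of the HIF pathway, including Arnt (0.08 ± 0.40) and Vhl (0.24 ± 0.43), none was called.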

How the data were processed

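Per the labels' protocols, unstranded libraries were made from 50 ng of RNA with an ultra-low input kit and sequenced as paired 75-base reads. STAR, HTSeq, DESeq2 and mm10 are named in the submitters' processing notes, but the deposited files hold, per the file headers, a transcript's length, effective length, estimated count and TPM; which program made them no source used here says. Estimated counts as deposited carry no normalization, and the deposited TPM values sum to 1000000 per library. Transcripts were matched to GENCODE M21 (GRCm38): 110203 of 111462 matched, and the rest, with 0.378% to 0.436% of counts, were dropped. The counts of a gene's transcripts were added up and rounded to whole numbers. Gene spans are 1-based, and without strand a gene and an overlapping antisense gene cannot be told apart.

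All 12 libraries were fitted together in edgeR 4.0.16 (R 4.3.3) with TMM, filterByExpr and the quasi-likelihood test (robust, 8 residual degrees of freedom), for 7 comparisons with Benjamini-Hochberg adjustment over 16027 genes. The functions were tested on simulated data. SE is the fitted log2 fold change divided by the square root of F. DESeq2 1.42.0, limma voom 3.58.1 and other settings were alternatives. The members and gene lists were chosen with earlier results of these data known. Values in every library are given for members called in any comparison, with an unadjusted p below 0.01 in the test of any difference, or with a log2 fold change beyond 1 against Control at 1 CPM or more. The most abundant member of each role and Hif1a, Vegfa, Slc2a1, Hk2, Pkm and Ldha are added. Not every allele of the mice is reported here. Precision is limited by 3 libraries per group rather than by depth for the abundant enzymes. Lane could not be tested, since the labels do not say which libraries shared one.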

Additional observations from a re-analysis of the deposited data

How the results depend on the processing

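Counts of called members moved with the tool, the libraries in the fit and single libraries. DESeq2 called 1 with CSF1Ri against Control and, with the combination, 10 against Control, 4 against the CD40 agonist and 9 against CSF1Ri. It called 2 for the interaction and 12 for any difference. The main counts were 0, 4, 0, 5, 0 and 4. Without CSF1Ri replicate 3 and combination replicate 2 together, CSF1Ri against Control gave 3, the interaction 1 and any difference 8. Where its share of all genes is given above, DESeq2 also called more of all genes than edgeR. Such shares are not given for the 9, 12 and 8, for limma voom, for the replicate block or for fits with 1 library left out. Those counts are therefore not results about the members. With only the libraries compared, 0 were called in the combination against Control and 0 against CSF1Ri. Same-numbered libraries did not deviate together over all genes (0 of 18 pairs above a correlation of 0.1), and the main fit left them unpaired. This cannot exclude a shared day or cage that touched fewer genes. With the replicate block 0, 2 and 0 members were called for the combination against Control, against CSF1Ri and for any difference. With 1 library left out the counts ran from 0 to 5, 0 to 6, 0 to 6 and, for CSF1Ri against Control, 0 to 1, in the order combination against Control, against CSF1Ri, any difference. Enzymes minus targets with the CD40 agonist ran from -0.015 (without Control replicate 3) to 0.239, so its sign rests on 1 library. The combination-to-Control ratio of Hif1a was 0.907 in TPM. Adding near-identical copies, chosen after seeing the data, kept the same 4, 5 and 4 called members. Of the fold changes of single named members 594 stayed on their side of the threshold, 25 gained and 74 lost the call, and none turned; the causes were not tested. For the abundant enzymes 3 libraries per group limit these results more than depth. For members at a few CPM the part of depth was not tested.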
